A study of Mus musculus with 48 samples.

Results

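The 4 hours between circadian time 20 (CT20), late in the subjective night, and circadian time 0 (CT0), the start of the subjective day, were compared in mouse kidney by RNA sequencing. The 16 libraries of these times, 8 at CT20 and 8 at CT0, were chosen by their labels from the 48 libraries of a series that covers 6 circadian times 4 h apart. They form 4 groups of 4: Vehicle CT20, Vehicle CT0, D-Ala CT20 and D-Ala CT0. All mice are labelled WT. D-Ala mice received D-alanine, the mirror-image form of the common amino acid, and Vehicle mice received the carrier. The sources used here do not give the dose, route, strain, sex, age or lighting. Per the series text, each group took its kidneys from separate mice and the whole experiment was repeated. The values lie in 2 deposited tables, each with 2 libraries of every group; that the tables are the runs is an inference. Values are FPKM, fragment counts scaled by gene length and by library depth. Replicate numbers follow the order of the samples and pair nothing across groups.

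The mammalian clock is a feedback loop of transcription. CLOCK or NPAS2 pairs with BMAL1 (the gene Arntl) and switches on genes through E-box sequences, among them those of the PER and CRY repressors, which then shut the activators down. In a linked loop, the ROR receptors activate and the REV-ERB receptors (Nr1d1, Nr1d2) repress Arntl through a shared element, and the D-box factors DBP, TEF, HLF and NFIL3 pass the rhythm on. In kidney this loop is known for daily cycles of sodium, water and solute transport.

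Depth, recovered from the steps in the low FPKM values, ran from 9827683 to 13672260 fragments per library. Proximal tubule genes were the most abundant cell type markers, with summed values of 27057 to 66836 FPKM. Markers of skeletal muscle summed to at most 3.77 FPKM and those of adrenal cortex to at most 2.62 FPKM. D-Ala CT0 replicate 2 had the most inner medulla markers, 2796 FPKM against 83.8 to 1270 FPKM in the other 15. High sums were not particular to it. In the first table D-Ala CT20 replicate 2 had 1270 FPKM, Vehicle CT0 replicate 1 871, D-Ala CT0 replicate 1 864 and Vehicle CT20 replicate 1 683. The second table had at most 244 FPKM. Values without D-Ala CT0 replicate 2 are given beside several results below, and leaving it out does not remove the other high libraries. In whole kidney, fewer cells of a type and less RNA per cell cannot be told apart.

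The step held few genes that passed the test. limma, fitted to log2(FPKM + 1) with treatment and table as covariates, called 3 of 14922 genes (0.0201%) at an adjusted p under 0.05, and all of them were lower at CT0, Per1 and Per2 among them. None was higher (0%). At an unadjusted p under 0.05 there were 1155 genes (7.74%). The median change of all genes was 0.02 on the log2 scale, with 56.7% above 0. In all, 4 genes (0.0268%) had all 8 CT0 values below all 8 CT20 values, Per1, Usp2 and E230016M11Rik among them, and no gene had them all above (0%).

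The same fit on the other 5 steps of the day called 583 genes (3.91%) from CT0 to CT4, 71 (0.476%) from CT4 to CT8, 92 (0.617%) from CT8 to CT12, 418 (2.8%) from CT12 to CT16 and 53 (0.355%) from CT16 to CT20. The step from CT20 to CT0 thus had the fewest calls of the 6. It also had the largest median standard error, 0.112 on the log2 scale against 0.085 to 0.102 in the others. When the spread was estimated from all 48 libraries together, in a model of the 12 groups, the step had 64 calls (0.429%), beside 75 (0.503%) from CT16 to CT20, 367 (2.46%) from CT12 to CT16, 34 (0.228%) from CT8 to CT12, 119 (0.797%) from CT4 to CT8 and 1176 (7.88%) from CT0 to CT4. So the lowest place held only with the spread of each step's own 16 libraries. That 64 in turn ran from 20, without Vehicle CT0 replicate 1, to 120, without D-Ala CT20 replicate 4, as each of the 16 libraries was left out. Neighbouring steps share 8 libraries, so their counts are not independent.

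**Figure D1:**
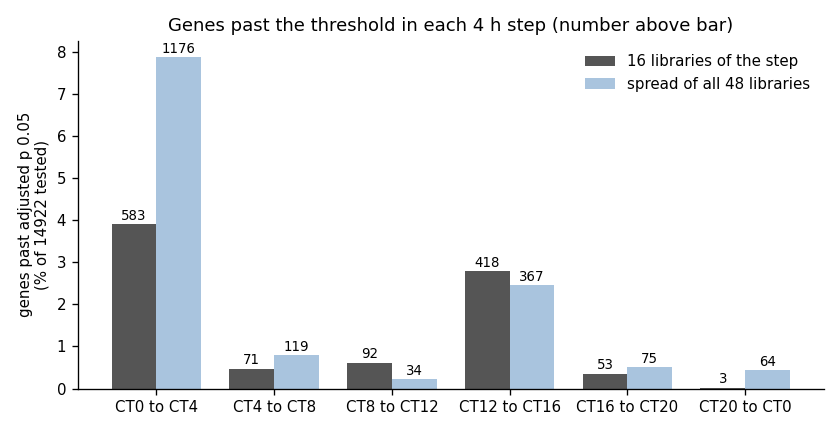
Percent of the 14922 genes tested that passed an adjusted p of 0.05 in each 4 h step of the day, with the number above each bar, for the spread of the step's own 16 libraries and for that of all 48. The step from CT20 to CT0 has 3 calls with its own libraries and 64 with all 48; the step from CT0 to CT4 has 583 and 1176.

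The promoters of clock genes were searched for the letters of elements through which this loop is known to act. RefSeq promoters on GRCm38, from 250 bases before to 50 after each start, matched 16 clock genes; Per2 and Bhlhe40 had no entry. The elements searched on both strands were the E-box CACGTG, the D-box TTANGTAA and the REV-ERB and ROR element. The 4 windows below, printed 5′ to 3′ on the gene's strand with the element in capitals, are shown because Per1 was called, because Arntl and Per3 are the only clock genes of the 16 with the ROR element and the D-box, and because Cry1 differed most between the tables.
Per1 E-box, chr11:69098753-69098818, plus strand, first capital at position -166 from the upstream of its 2 RefSeq starts, which lies inside the deposited gene span: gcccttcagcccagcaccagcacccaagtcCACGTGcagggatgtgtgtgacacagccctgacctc
Cry1 E-box, chr10:85185079-85185144, minus strand, position -60: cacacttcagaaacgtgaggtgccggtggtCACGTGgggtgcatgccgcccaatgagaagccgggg
Arntl REV-ERB and ROR element, chr7:113207508-113207560, plus strand, position 28 from 1 of its 2 RefSeq starts: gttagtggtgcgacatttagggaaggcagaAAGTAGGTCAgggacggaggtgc
Per3 D-box, chr4:151044786-151044853, minus strand, position -158: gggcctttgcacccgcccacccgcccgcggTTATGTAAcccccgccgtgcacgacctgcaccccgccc
A match is a description of the letters in the window and not a binding site. The E-box was in 11.7% of the promoters of all genes tested, in 5 of the 16 clock genes (Per1, Cry1, Ciart, Tef and Bhlhe41) and in 5 of 38 genes (13.2%) lower at CT0 with the spread of all 48 libraries. The D-box was in 1.88% and the ROR element in 0.203% of all promoters.

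Per1 (ENSMUSG00000020893, chr11:69095217-69109960, plus strand, GRCm38) encodes a PER repressor that also answers to glucocorticoids. Vehicle libraries had 10.7, 6.06, 4.90 and 8.23 FPKM at CT20 and 3.69, 3.96, 2.79 and 3.36 at CT0. D-Ala libraries had 8.31, 9.36, 8.65 and 6.76 FPKM at CT20 and 4.41, 4.79, 3.03 and 3.44 at CT0. The groups did not overlap, though the lowest CT20 value (4.90) and the highest CT0 value (4.79) were close. The log2 change was -0.90 (SE 0.109), a 1.87-fold drop, with a limma adjusted p of 0.00403 and a range of 0.0014 to 0.0182 when each library was left out. With either treatment or either table alone, 4 libraries against 4, Per1 was not called, at changes of -0.95 to -0.86. Per1 was not called in the steps on either side, at 0.07 before and 0.08 after (adjusted p 0.968 and 0.769, spread of all 48 libraries). Its highest median was 17.5 FPKM at CT12.

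Per2 (ENSMUSG00000055866, chr1:91415982-91459324, minus strand), the partner repressor, moved through the step as part of a longer decline. Its CT20 values were 12.2, 14.9, 12.4 and 11.5 FPKM with Vehicle and 16.8, 15.02, 8.34 and 9.12 with D-Ala. At CT0 they were 4.99, 11.6, 2.91 and 3.49 FPKM with Vehicle and 7.72, 8.38, 4.30 and 5.32 with D-Ala. The times overlapped through Vehicle CT0 replicate 2 at 11.6 FPKM and D-Ala CT0 replicate 2 at 8.38 FPKM. The log2 change was -1.004 (SE 0.149), a 2.01-fold drop, with a limma adjusted p of 0.0323. This call was lost in 13 of the 16 fits that left out a library, where adjusted p-values ran from 0.0025 to 0.106, while the log2 change stayed between -1.11 and -0.93. It held without Vehicle CT0 replicate 2, Vehicle CT20 replicate 1 or D-Ala CT20 replicate 3. With the spread of all 48 libraries Per2 fell by 1.04 in the step before and by 0.61 in the step after (adjusted p 1.27e-06 and 0.0020), and its medians ran from 26.1 FPKM at CT16 to 12.3, 5.15 and 3.38 FPKM at CT20, CT0 and CT4.

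**Figure D2:**
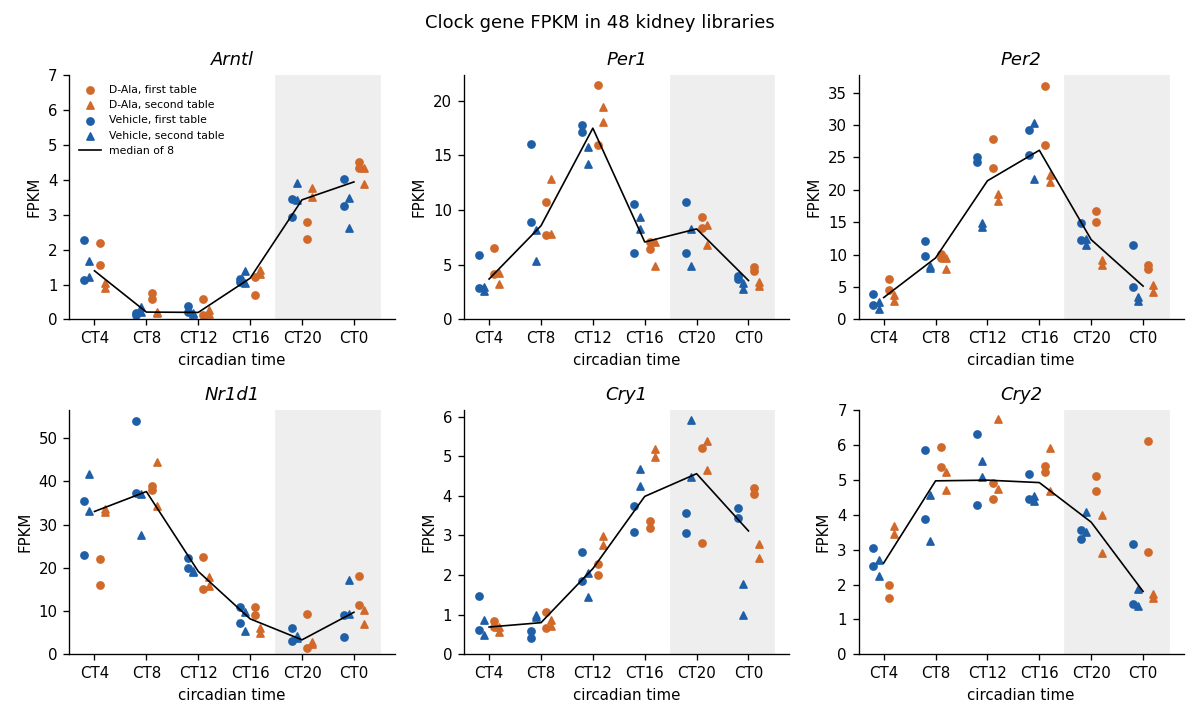
FPKM of Arntl, Per1, Per2, Nr1d1, Cry1 and Cry2 in all 48 libraries by circadian time, points for libraries and the line for the median of 8, with the step from CT20 to CT0 shaded. Arntl lies between 2.29 and 3.91 FPKM at CT20 and between 2.62 and 4.49 at CT0, Per1 has medians of 7.08 and 8.27 FPKM at CT16 and CT20 and of 3.56 and 3.69 at CT0 and CT4, and Nr1d1 climbs from a low median of 3.34 FPKM at CT20.

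The clock genes described next did not pass in the 16 libraries. Nr1d1, which encodes REV-ERB alpha, had the largest rise in value. At CT20 its lowest, median and highest FPKM were 1.34, 3.34 and 9.27, and at CT0 they were 4.02, 9.72 and 18.1. The ranges overlapped, through D-Ala CT20 replicate 2 at 9.27 FPKM and Vehicle CT0 replicate 2 at 4.02 FPKM. Its log2 change of 1.23 (SE 0.309) did not pass in the 16 libraries (limma adjusted p 0.302) and did pass with the spread of all 48 (0.00563). It rose again from CT0 to CT4, by 1.44 (adjusted p 0.000109).

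The CRY repressors lay lower at CT0 without passing. Cry2 went from 2.91, 3.79 and 5.12 FPKM (lowest, median and highest) at CT20 to 1.38, 1.80 and 6.14 at CT0. The highest of all 16 values was D-Ala CT0 replicate 2, the library with the most inner medulla markers; the next highest at CT0 was 3.16 FPKM. Cry2's change was -0.56 (SE 0.162, limma adjusted p 0.404). In the fit of the 16 libraries it did not pass whichever library was left out (limma adjusted p 0.139 to 0.650). Without that library the change was -0.71 with an adjusted p of 0.00298 over the other 47 libraries, against 0.0765 over all 48. Cry1 went from a median of 4.56 to 3.11 FPKM, a change of -0.49 (SE 0.188, adjusted p 0.557), and it was 0.08 in the first table and -1.06 in the second. In the second table Cry1 had 4.47, 5.90, 4.64 and 5.37 FPKM at CT20 and 1.77, 0.99, 2.79 and 2.43 at CT0, with no overlap. In the step after, from CT0 to CT4, Cry1 fell by 1.09 over both tables (adjusted p 5.7e-06).

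The activators Arntl, Npas2 and Clock did not pass and had their highest medians of the day at CT20 and CT0. Arntl had medians of 3.42 and 3.94 FPKM, a change of 0.17 (adjusted p 0.690), between a rise of 0.97 from CT16 to CT20 and a fall of 0.95 from CT0 to CT4. Npas2, its partner, had a change of 0.21 (adjusted p 0.690) between a rise of 1.37 and a fall of 0.67. Clock and Rora had changes of 0.09 and 0.02 (adjusted p 0.778 and 0.957).

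None of the 4 D-box factors passed. Tef, a D-box activator, had medians of 29.8 and 21.3 FPKM and a change of -0.40 (SE 0.094, limma adjusted p 0.274). Hlf, of the same family, had a change of -0.36 (adjusted p 0.502). Dbp, another activator of the family, had the lowest medians of its day, 2.72 and 2.65 FPKM, against 17.2 to 92.2 FPKM at the other 4 times. Its change of -0.19 lay between a fall of 2.14 from CT16 to CT20 and a rise of 2.93 from CT0 to CT4. Nfil3, the D-box repressor, had a change of -0.03 and then fell by 1.46 from CT0 to CT4. Among the remaining repressors Per3 had a change of -0.28, Bhlhe40 of -0.16, Nr1d2 of 0.14, Bhlhe41 of 0.04 and Ciart of -0.03, with adjusted p-values of at least 0.602. Per3 and Nr1d2 fell in the step before (by 1.22 and 0.98) and rose in the step after (by 0.53 and 1.07).

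**Figure D3:**
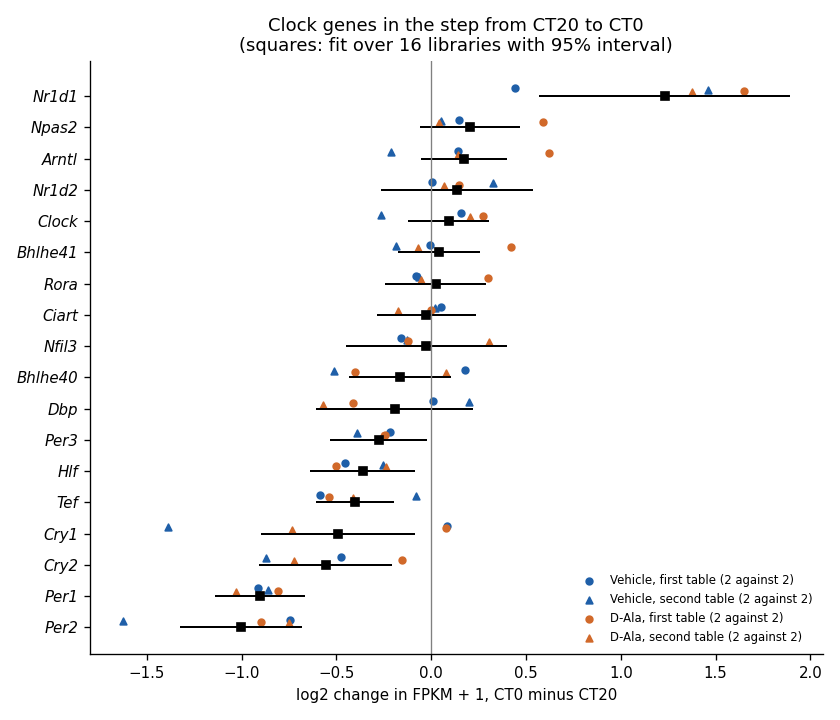
Log2 change from CT20 to CT0 of 18 clock genes, squares for the limma estimate with its 95% interval over 16 libraries and points for the 4 combinations of treatment and table. Per1 and Per2 lie at -0.90 and -1.004 with all 4 points below 0, and the Cry1 points lie apart by table.

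With the spread of all 48 libraries, 7 genes rose (0.0469%) and 57 fell (0.382%). Of these 64, 17 were called whichever of the 16 libraries of the step was left out: 2 higher, Dnajb1 and Nr1d1, and 15 lower, among them Per1 and Per2. These genes were picked for description after their values were seen.

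Usp2, a deubiquitinase whose targets include clock proteins, fell without overlap between the times. Its lowest, median and highest FPKM were 22.8, 25.3 and 30.6 at CT20 and 9.999, 16.7 and 19.9 at CT0. The change was -0.70 (SE 0.109, adjusted p 0.000378 with all 48 libraries and 0.111 in the 16), and it was -1.04 in the first table and -0.36 in the second. It was the only one of 13 clock-controlled output genes to pass in the larger fit; the list's median change was -0.04, with 4 of 13 above 0.

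Fga, the fibrinogen alpha chain, fell by 0.88 (SE 0.139, adjusted p 0.00042) from a median of 9.57 to 4.27 FPKM, after rising by 0.996 from CT16 to CT20. Its change was -1.34 in the first table and -0.41 in the second. Mfsd2a, a transporter of lysophosphatidylcholine, had the largest fall of the 17, from 8.28, 31.6 and 42.7 FPKM at CT20 to 3.66, 7.42 and 26.3 at CT0. Its change was -1.59 (SE 0.308, adjusted p 0.00758), and it was uneven: -2.65 in the first table and -0.52 in the second, and -0.86 with Vehicle and -2.31 with D-Ala. Mfsd2a did not fall in all 4 combinations of treatment and table. Tsku, a secreted leucine-rich proteoglycan, fell from 9.04 to 4.60 FPKM, a change of -0.89 (adjusted p 0.00598). That too was larger in the first table (-1.42) than in the second (-0.35), and for Fga, Mfsd2a and Tsku the difference between tables was not called.

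Smaller falls among the 17 were those of Clcn2, a chloride channel (5.53 to 3.50 FPKM, -0.44), Prkag3, a regulatory subunit of the energy sensor AMPK (5.13 to 2.23 FPKM, -0.69), and Tesk2, a protein kinase (4.00 to 3.03 FPKM, -0.32). Clcn2 rose again by 0.58 from CT0 to CT4 (adjusted p 1.03e-05). Further falls were those of Gm4956, AI429214 and BC025446, gene models with changes of -0.61, -0.53 and -0.61. BC025446 was uneven, at -1.11 in the first table and -0.10 in the second (adjusted p of the difference 0.0189 with all 48 libraries) and at -0.22 with Vehicle and -0.99 with D-Ala. It did not fall in all 4 combinations of treatment and table. Calls that were lost without D-Ala CT0 replicate 2 included Actg1 (0.32), the actin gene, Sik1 (-0.68), a salt-inducible kinase, and Ces1d (-0.46), a carboxylesterase. The loss was not particular to that library. As each of the 16 libraries was left out, Actg1 was called in 4 fits, Sik1 in 6 and Ces1d in 4.

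Dnajb1, the co-chaperone that hands substrates to HSP70, had the smallest p of the 7 genes that rose. It had 6.40, 8.56 and 13.8 FPKM at CT20 and 10.9, 13.6 and 25.9 at CT0, so the ranges overlapped. The change was 0.63 (SE 0.101, adjusted p 0.00042 with all 48 libraries and 0.130 in the 16), with 0.67 in the first table and 0.60 in the second, and 0.43 with Vehicle and 0.83 with D-Ala. Dnajb1 fell by 0.61 from CT16 to CT20 and by 0.83 from CT0 to CT4.

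Most heat shock chaperones had a change above 0, and Dnajb1 was the only one called, with the spread of all 48 libraries. Of 25 genes tested, Dnajb1 included, 23 had a change above 0, against 56.7% of all genes. The median was 0.20 against 0.02. Hspa1a, the inducible HSP70, went from a median of 4.01 to 12.1 FPKM (0.94, SE 0.432, limma adjusted p 0.634), and Hspa8, the constitutive form, from 383 to 457 FPKM (0.37, adjusted p 0.534). The mitochondrial chaperones Hspd1 (-0.01) and Hspe1 (-0.09) were the 2 below 0. By treatment the list's median was 0.03 with 16 of 25 above 0 in Vehicle and 0.40 with 24 of 25 in D-Ala, where all genes had medians of -0.02 and 0.06. Without D-Ala CT0 replicate 2 the median for heat shock chaperones over both treatments was 0.15, with 22 above 0. Cirbp and Rbm3, RNA-binding genes induced by cold, had changes of -0.31 and -0.32 (adjusted p 0.687 and 0.451).

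No member of the renal transport lists passed in the 16 libraries, and their values lay beside like values of cell type markers. Tubular amino acid transport, genes of the proximal tubule that reclaim amino acids, had 0 of 16 above 0 and a median of -0.16, with -0.37 in the first table and -0.0004 in the second. Its leading gene was Slc6a18, a neutral amino acid transporter, with medians of 213 and 160 FPKM and a change of -0.52 (limma adjusted p 0.332). Dao, the D-amino acid oxidase that degrades D-alanine, had a change of -0.16 (adjusted p 0.691). Drug and organic ion handling had 1 of 23 above 0 and a median of -0.26, at -0.52 and 0.03 by table. Beside them, the 9 proximal tubule markers had 0 above 0 and a median of -0.13, at -0.26 and 0.09 by table. By treatment that median was -0.04 with Vehicle and -0.25 with D-Ala. In the first table the marker sum was 38163 to 51661 FPKM at CT20 and 27057 to 38013 at CT0, narrowly without overlap. Of those libraries, Vehicle had 38163 and 39221 FPKM at CT20 and 36264 and 38013 at CT0. D-Ala had 51661 and 39460 FPKM at CT20 and 28057 and 27057 at CT0. In the second table the sum was 43077 to 53656 FPKM at CT20 and 47511 to 66836 at CT0. The part of these markers in the list values was not tested.

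Lists of the medulla and stroma lay higher at CT0 in the first table and not in the second. Their median changes were also higher with D-Ala than with Vehicle. Water transport and osmolytes had 9 of 14 above 0 and a median of 0.31, at 0.70 in the first table and -0.19 in the second. By treatment that median was -0.13 with Vehicle and 0.58 with D-Ala. Actin, SRF and YAP targets had 16 of 18 above 0 and a median of 0.24 (0.56 and -0.07), and collagens and basement membrane had 18 of 20 above 0 and a median of 0.17 (0.43 and -0.08). With Vehicle the actin and collagen lists had medians of 0.01 and 0.03, and with D-Ala 0.43 and 0.35. The difference by treatment was not tested for lists. Within the actin list Cyr61, a YAP target, was closest to passing, with medians of 7.59 and 12.1 FPKM and a change of 0.60 (limma adjusted p 0.278).

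Several cell type marker lists divided by table in the same way, and others did not. Thick ascending limb markers had median changes of -0.33 and -0.06 in the first and second table. Macrophage markers had 0.02 and 0.11, and neutrophil markers 0.17 and 0.36. The 7 inner medulla markers had a median change of 0.38, at 1.44 in the first table and -0.44 in the second. By treatment it was -0.003 with Vehicle and 0.93 with D-Ala. In the first table these markers summed to 91.0 to 1270 FPKM at CT20 and 183 to 2796 FPKM at CT0. Of those libraries, Vehicle had 683 and 144 FPKM at CT20 and 871 and 183 at CT0. D-Ala had 91.0 and 1270 FPKM at CT20 and 864 and 2796 at CT0. The 6 fibroblast and pericyte markers summed to 22.3 to 27.8 FPKM at CT20 and 37.8 to 53.2 FPKM at CT0 there, without overlap, and to 28.9 to 56.2 and 27.7 to 40.2 FPKM in the second table. Endothelium markers had a median change of 0.58 and -0.13 by table (-0.03 with Vehicle and 0.41 with D-Ala), collecting duct principal cell markers 0.90 and -0.22. Urothelium markers divided most by table, at 1.24 and -1.03. Smooth muscle and juxtaglomerular markers had 0.92 and -0.45, and adipocyte markers 0.49 and -0.71. No member of any of the 16 cell type lists with a gene tested was called. Without D-Ala CT0 replicate 2 the medians were 0.23 for inner medulla, 0.17 for collecting duct principal cell, 0.13 for water transport and osmolytes and 0.11 for actin, SRF and YAP targets. What the markers add to the list values was not tested.

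**Figure D4:**
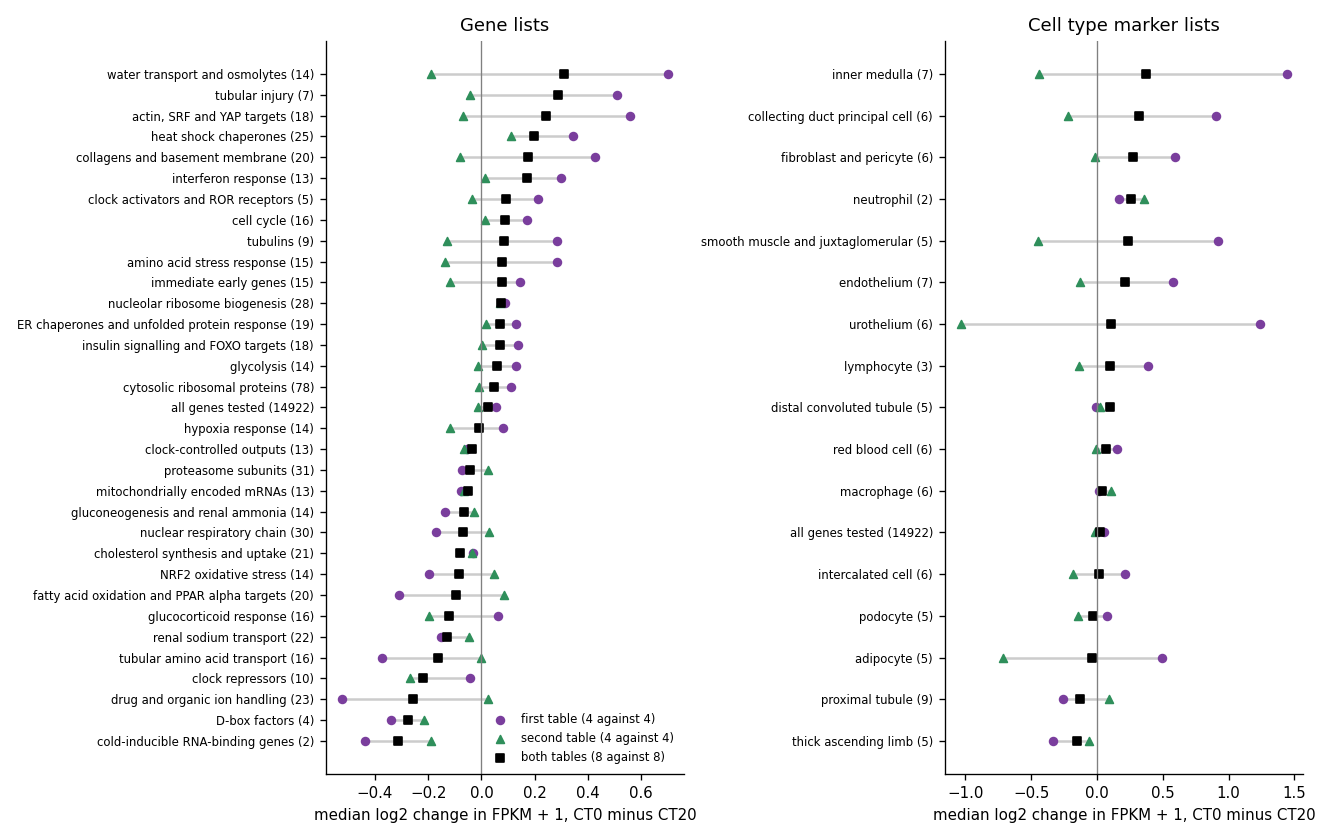
Median log2 change from CT20 to CT0 of each pathway list and cell type marker list, in the first (circles) and second (triangles) deposited table and in both (squares), with the number of genes tested in parentheses. Water transport and osmolytes lies at 0.70 in the first table and -0.19 in the second, and inner medulla markers at 1.44 and -0.44.

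**Figure D5:**
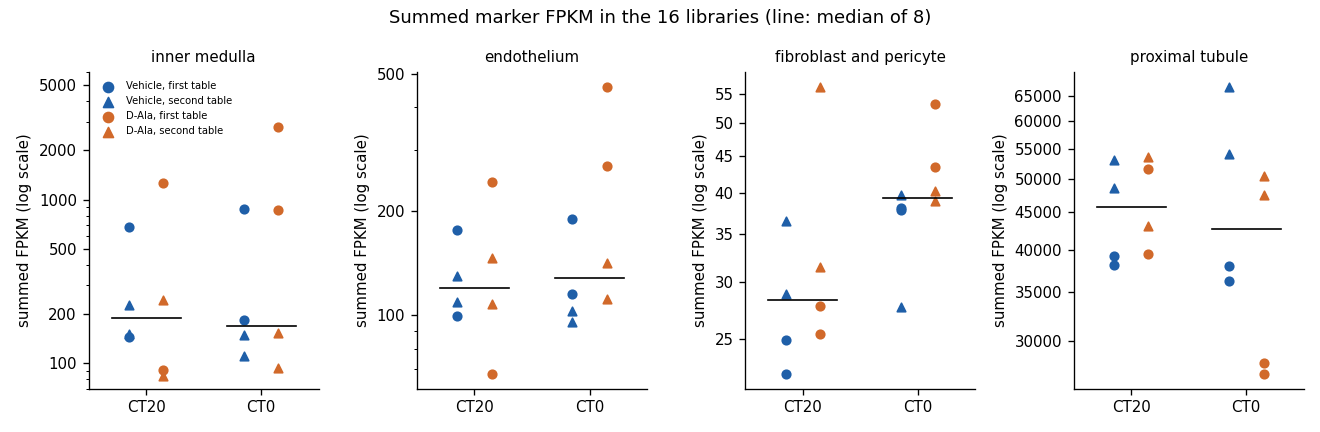
Summed FPKM of inner medulla, endothelium, fibroblast and pericyte, and proximal tubule markers in each of the 16 libraries, on a log axis, by time and table. D-Ala CT0 replicate 2 lies highest for inner medulla markers at 2796 FPKM. The proximal tubule sums of the first table narrowly do not overlap between CT20 and CT0. Their lowest CT20 value (38163 FPKM) and highest CT0 value (38013 FPKM) are both Vehicle.

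Of the metabolic, growth and other lists described next, only the glucocorticoid response had a call in the 16 libraries. Cytosolic ribosomal proteins had 67 of 78 above 0 at a median of 0.05 (49 of 78 and 0.02 without D-Ala CT0 replicate 2). By table they had 71 of 78 above 0 at 0.11 in the first and 37 of 78 at -0.01 in the second. By treatment they had 68 of 78 at 0.09 with Vehicle and 49 of 78 at 0.02 with D-Ala. Nuclear respiratory chain genes had 2 of 30 above 0 at -0.07. By table the respiratory chain genes had 2 of 30 above 0 at -0.17 in the first and 21 of 30 at 0.03 in the second. Gluconeogenesis and renal ammonia had 5 of 14 above 0 at -0.07, led by Pck1, its rate-limiting enzyme, with medians of 672 and 508 FPKM (-0.56, adjusted p 0.475). Fatty acid oxidation had 6 of 20 above 0 at -0.09, with 4 of 20 at -0.31 in the first table and 16 of 20 at 0.09 in the second, led by Pdk4, a brake on glucose oxidation (7.07 to 4.17 FPKM, -0.72, adjusted p 0.379). Renal sodium transport had 8 of 22 above 0 at -0.13, led by Slc9a3, the sodium-proton exchanger of the proximal tubule, with medians of 9.79 and 4.90 FPKM (-0.57, adjusted p 0.534). The glucocorticoid response had 7 of 16 above 0 at -0.12, with Per1 its only call.

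Mitochondrially encoded transcripts took 16.2%, 28.4% and 42.6% of the FPKM (lowest, median, highest) at CT20 and 15.4%, 25.4% and 43.8% at CT0. Means were 28.7% ± 10.8 and 28.4% ± 12.2 (SD, n = 8 each), a difference of -0.282 percentage points (exact two-sided permutation p 0.867, time exchanged within treatment and table, smallest possible p 0.00154). Without D-Ala CT0 replicate 2 the difference was 1.17 percentage points (exact permutation p 0.355). The tables differed by more than the times, with 28.9% to 43.8% at CT0 in the first and 15.4% to 21.8% in the second.

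The step was then compared between treatments by its interaction term. No gene passed (0%), 548 had an unadjusted p under 0.05, and the smallest adjusted p was 0.874. Per1's change was -0.89 with Vehicle and -0.92 with D-Ala, a difference of -0.04 with a 95% interval of -0.52 to 0.45, and Per2's was -1.18 and -0.82, a difference of 0.36 (-0.27 to 0.99). These intervals still allow unequal steps. The smallest p-values belonged to Rbsn, an endosomal fusion protein gene (-0.15 and 0.57), Rbm14, a nuclear RNA-binding protein gene (-0.01 and 0.78), and Fzd4, a Wnt receptor (-0.22 and 0.41), all at an adjusted p of 0.874. The median difference over all genes was 0.08, and it varied with the scaling. It was 0.19 with values rescaled to TPM, -0.04 with median centring and -3.8e-06 with quantile normalization.

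Between the tables no gene passed in the 16 libraries either (0%), with 1497 at an unadjusted p under 0.05 and a smallest adjusted p of 0.419. Acta2 and Myh11, contractile genes of smooth muscle, were among the smallest p-values, at 0.92 and -0.45 and at 0.93 and -0.30 in the first and second table. Slc27a2, a fatty acid transporter of the proximal tubule, had the opposite order, -0.72 and 0.07. Mpv17l lay the same way as Slc27a2, with a difference, second minus first table, of 0.76 to 0.92 as libraries were left out. With the spread of all 48 libraries 12 genes differed between tables, 10 with the higher change in the second table and 2 with the lower, Cry1 (difference -1.14, adjusted p 0.0206) and Gata2 (-1.05). Per1 had changes of -0.86 and -0.95 in the first and second table, a difference that was not called (adjusted p 0.901).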

How the data were processed

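Kidney RNA was sequenced from the 16 libraries of CT20 and CT0. Per the labels' protocols, extraction used RNeasy columns and library preparation a SMARTER mRNA-Seq kit. The authors deposited FPKM values for 49585 genes in 2 tables; the submitters' processing notes name GRCm38 (mm10), and the aligner, counter and strandedness were not given in the sources used here. FPKM is scaled to each library's total, so a few abundant transcripts can shift all others. With GENCODE M21 exon lengths (49326 identifiers matched, 45128 with equal coordinates), 97.0% to 97.5% of values under 20 fragments in single-transcript genes came out whole within 0.05, which gave the depth of each library (median 11829116 fragments); FPKM remained the unit tested.

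Genes with FPKM of at least 1 in at least 4 of the 48 libraries were kept (14922). limma 3.58.1 in R 4.3.3 was fitted to log2(FPKM + 1) with time, treatment and table, trended empirical Bayes and Benjamini-Hochberg adjustment over all genes at 0.05, two-sided; fold changes on this scale understate those of low genes. Interactions of time with treatment and with table were fitted in the same libraries. The procedure was tested on simulated data. Nothing beyond the series text says that libraries are separate mice, so p-values measure the spread between these libraries. No 2 replicates agreed within sampling noise (chi-square per gene at least 9.75); correlations were at least 0.936 inside a table and at least 0.886 between the tables.

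The step, its members and the gene lists were chosen with earlier results of these data known. Genes named were up to 15 called higher and 15 lower with the same direction in all 4 combinations of treatment and table, all clock genes, of each other list the called members or else the 1 with the smallest p, of each cell type list the 1 with the smallest p, and 5 for each interaction. 1 item is not reported here. Some genes chosen by these rules are not printed. Genes of the 48-library fit, and other list members, were named after their values were seen. Alternatives were the pseudocount, the filter, the scaling, moderation, covariates, each treatment or table alone, all 48 libraries and each library left out. Chosen after seeing the data were limma voom on recovered fragments, the 48-library fit without 1 library, and list medians under each setting. Figures were drawn with matplotlib 3.10.9.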

Additional observations from a re-analysis of the deposited data

Results flagged for a closer look

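In groups of 8 libraries, the gap from the highest or lowest value to its neighbour was compared with the whole range, for each named gene at each time. Of 144 such groups 8 stood out at Dixon's 95% limit of 0.526, and chance alone flags about 1 in 20. At CT0 these were Rora, with 1.158 FPKM in Vehicle CT0 replicate 2 against 2.388 to 3.434 in the other 7, Cry2, with 6.136 FPKM in D-Ala CT0 replicate 2 against 1.378 to 3.156, and Pvalb, a distal convoluted tubule marker, with 38.12 FPKM in D-Ala CT0 replicate 4 against 12.96 to 23.52. At CT20 they were Dbp, with 5.424 FPKM in D-Ala CT20 replicate 2 against 1.981 to 3.598, and Miox, a proximal tubule marker, with 1610 FPKM in D-Ala CT20 replicate 1 against 898.4 to 1145. The remaining 3 all belonged to D-Ala CT20 replicate 4: Ces1d at 251.7 FPKM against 104.6 to 165.2, Cidec, an adipocyte gene, at 2.374 FPKM against 0 to 0.9901, and Pvalb at 35.32 FPKM against 8.936 to 20.46.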

How the results depend on the processing

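No paired analysis was possible because the labels give no replicate numbers. The 3 genes called, none of them higher, became 5, all lower, with robust moderation or without the treatment term. They were also 5, all lower, with values rescaled to each library's total without mitochondrially encoded genes. They were 0 with Vehicle, D-Ala or the first table alone (4 libraries against 4), and 2 with the second table alone. Neither Per1 nor Per2 was called with either treatment or either table alone. Without the low-value filter 1 gene was higher. With all 48 libraries 7 were higher and 57 lower, 64 in all, and without D-Ala CT0 replicate 2 these were 5, 23 and 28. Leaving out a library gave 2 to 5 calls, the 5 without Vehicle CT0 replicate 2, and 1 to 2 called clock repressors. Per2 lost its call without the filter (adjusted p 0.0782), with median centring (0.0519) and without the table term (0.403). The step by table, with 0 calls, had 12 with all 48 libraries; the step by treatment had 0 under every alternative run. The mitochondrial share difference was 0.347 points with Vehicle alone and 0.426 with the first table, and -1.73 to 1.17 as libraries were left out. Genes with reversed signs were uncalled: Vehicle alone Arntl -0.034, Clock -0.055, Rora -0.073, Bhlhe41 -0.097, Ciart 0.035, Dbp 0.10, Kdr -0.011 and Slc4a1 -0.067; D-Ala alone Nfil3 0.091; first table Cry1 0.080, Ciart 0.025 and Cidec 0.49; second table Arntl -0.036, Clock -0.030, Rora -0.060, Bhlhe41 -0.13, Nfil3 0.087, Pkm -0.12, Avpr2 -0.17, Dcn -0.082, Fxyd4 -0.48, Foxi1 -0.030, Cd79b -0.14, Slc4a1 -0.0031, Myh11 -0.30 and Krt5 -0.75; median centring Rora -0.0028; voom Cidec 0.11; the 47 libraries Rora -0.038 and Bhlhe41 -0.00090. As libraries were left out Rora ran from -0.041 to 0.10, Bhlhe41 from -0.0061 to 0.070, Ciart from -0.10 to 0.032, Nfil3 from -0.12 to 0.092 and Cidec from -0.24 to 0.056. Of 2355 values of 73 genes under other settings, 2272 kept direction and side of the threshold. Smaller subsets hold fewer samples; otherwise the cause was not tested. With 12 residual degrees of freedom the median unadjusted 95% interval reached 0.24 either side on the log2 scale. A call after adjustment needed more in variable genes, and Nr1d1, at 1.23, did not pass.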

Other observations

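Some genes called with the spread of all 48 libraries were neighbours. On chromosome 1, Cyp27a1, a sterol hydroxylase, and Prkag3 lie 1029 bases apart and both fell, by 0.46 and 0.69 on the log2 scale. On chromosome 11 Fmnl1 and the antisense model Gm20511 share 2187 bases, and on chromosome 17 E230001N04Rik and Armc12 lie 5512 bases apart. Without strand, overlapping transcripts cannot be told apart.

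The heat shock element was in 0.588% of all promoters and in 4 of 20 heat shock chaperones (Chordc1, Hspd1, Hspe1 and Hsph1). The matches of Hspd1 and Hspe1 are the same bases read on opposite strands. In the 48-library fit it was in none of the 7 genes higher at CT0, Dnajb1 included, and in 1 of 38 lower (Plscr4, 2.63%). Cry2 and 1600020E01Rik were the 2 genes called only without D-Ala CT0 replicate 2 in that fit, at -0.71 and -0.51.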
